A study of Schizosaccharomyces pombe with 87 samples.

Results

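Convergent pairs are neighbouring protein-coding genes transcribed towards each other, the left gene on the plus strand and the right gene on the minus strand, so that their 3′ ends meet. They were taken from the deposited all-chromosomes annotation of fission yeast, Schizosaccharomyces pombe, by sorting the genes with a messenger RNA record by start on chromosomes I, II and III and keeping adjacent plus-then-minus neighbours. Of 5110 adjacent pairs, 1394 (27.3%) were convergent. A further 1396 were divergent, a minus-strand gene followed by a plus-strand gene, and 2320 were tandem, with both genes on 1 strand. A gene can belong to only 1 convergent pair, so the pairs held 2788 of the 5113 protein-coding genes, or 54.5%. Convergent and divergent points alternate along a chromosome by construction, and their near-equal numbers carry no information.

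The series itself profiled histone H3 methylated on lysine 9, as H3K9me2 and H3K9me3, by chromatin immunoprecipitation and sequencing in 87 libraries, 48 immunoprecipitated and 39 input. Its genotypes were swi6-delta, swi6-delta mst2-delta, swi6-delta set1-delta, swi6-delta mst2-delta set1-delta, mst2-delta set1-delta, clr4-delta and wild type in the ectopic strain set (56 libraries), and the first 4 of these mutants with wild type in the endogenous set (31 libraries). Both deposited files used here are genome annotations with no value of any library, so no group of libraries enters the results and no test was run. Every value below is an annotated position, a count or a length in 1 genome, without replicates, sampling error or sequencing depth. Nothing below is therefore called particular to convergent pairs, and the other orientations are given beside them as values.

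At convergent genes, RNA polymerase II complexes on opposite strands run towards one another. Where termination lies beyond the partner's 3′ end, the transcripts are complementary over the shared stretch and could form double-stranded RNA. In fission yeast, convergent sites are known as places where cohesin accumulates, and RNA interference and H3K9 methylation have been described at some of them. Most of the RNA interference machinery acts at the centromeric outer repeats, where transcription of both strands feeds the Dicer ribonuclease.

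The meeting points of a few pairs show how closely 3′ ends can lie. In 10 pairs the last base of the plus-strand transcript was directly followed by the last base of the minus-strand transcript, and the first 8 along the genome are shown here. Each line gives the plus strand of RefSeq (assembly ASM294v3), 15 bases on either side of the junction, with the end of the plus-strand gene in lower case and the end of the minus-strand gene in capitals. Positions of printed sequences are RefSeq's, which on chromosomes II and III differ from those of the deposited annotation beyond its edited loci.
pis1/rtf2, chrI:652210-652239: tcactttacttcaatAAATTTAATCGTTCG
saf5/mrpl1, chrI:1791385-1791414: tacacatttcactaaTTTGTACAAAATTAA
cao1/cbm1, chrI:2935101-2935130: tcattattccttaaaTTTTCTTCTTAGTAT
gpi17/SPAC1F12.10c, chrI:3820512-3820541: gtgatatttgtgttgATGCGAAAATGTGAT
pmk1/orm1, chrII:732938-732967: ttactagtgaacgagTATATCTGTGGTAGA
prt1/clu1, chrII:798980-799009: tttatttattatttgGATGGTCCGTTTCTG
ctr6/nif1, chrII:2101239-2101268: tcttttgtaacttaaTGGATTAGTAAAGAA
orc6/ess1, chrII:2968248-2968277: acatttataaacgggTACACGATATCTTTA

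Convergent transcripts overlapped in 836 of 1394 pairs, or 60.0%. Over all 5110 adjacent pairs the share was 21.9%. Transcripts overlapped in 131 of 1396 divergent pairs (9.38%) and in 154 of 2320 tandem pairs (6.64%). The gap, counted as the bases between the transcripts and negative where they overlap, had a median of -47 bp in convergent pairs, with quartiles of -254.8 and 115.8 bp. Its median was 712 bp in divergent pairs and 319 bp in tandem pairs. The middle 50% of convergent pairs therefore lay on both sides of 0.

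**Figure D1:**
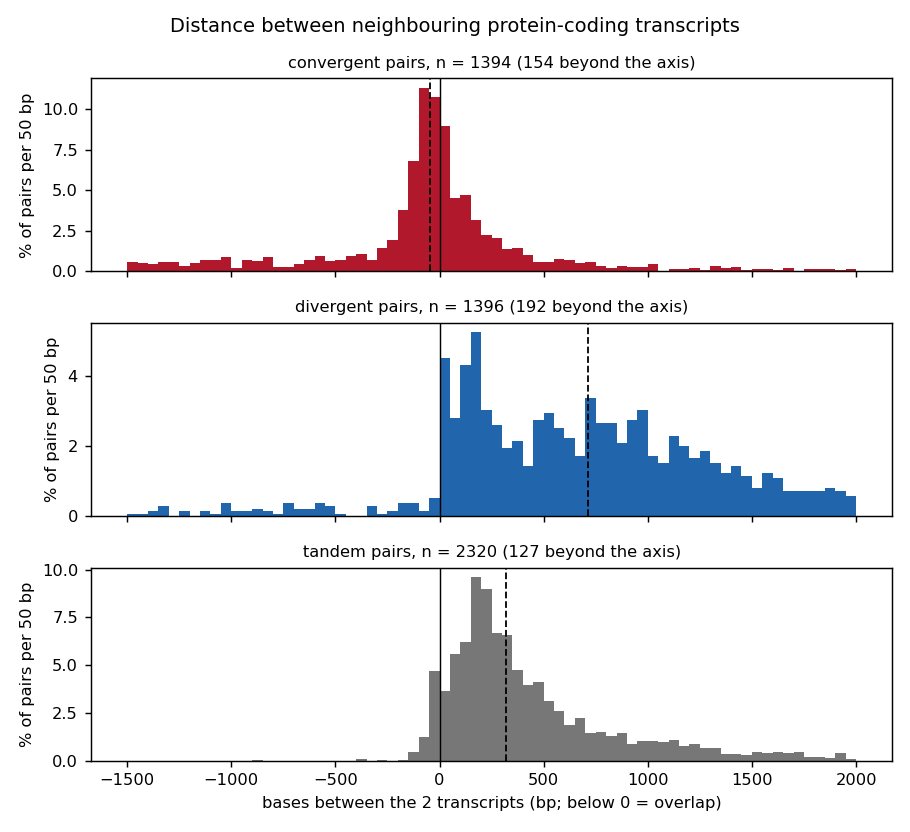
Share of pairs (%) per 50 bp of distance between neighbouring transcripts, for convergent, divergent and tandem pairs; values below 0 are overlaps, the solid line marks 0 and the dashed line the median. Convergent pairs pile up around 0 with a median of -47 bp, while the medians of divergent and tandem pairs lie at 712 and 319 bp.

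The overlaps were of very unequal length. Their median was 161 bp, with quartiles of 70 and 942 bp, and the longest was 6260 bp. Of the 836 overlapping pairs, 150 shared up to 50 bp, another 158 up to 100 bp, 148 up to 200 bp and 95 up to 500 bp. At the long end 80 shared up to 1000 bp and 205 shared more. Overlaps of at least 1000 bp thus occurred in 14.7% of convergent pairs, against 5.46% of all adjacent pairs. Tandem pairs had no overlap that long, and their median overlap was 31 bp. Divergent pairs had 74 overlaps of more than 1000 bp, in 5.30% of all 1396 pairs and 56.5% of the 131 that overlapped. In convergent pairs such overlaps made up 24.5% of the 836. The median divergent overlap was 1226 bp, and 89 of the 131 overlapping divergent pairs were nested. In all, convergent overlaps summed to 521241 bp, against 180708 bp in divergent pairs and 7933 bp in tandem pairs.

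The 548 convergent pairs that lay apart were separated by a median of 174.5 bp, with quartiles of 62.8 and 509.8 bp and a maximum of 5250 bp. The corresponding median space was 791 bp for 1265 divergent pairs and 344.5 bp for 2162 tandem pairs. Only 73 convergent pairs were more than 1000 bp apart. In 69 pairs the ends lay within 10 bp of each other in either direction.

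About as many overlaps stayed within untranslated sequence as reached further. In 433 of the 836 overlapping pairs (51.8%) the shared stretch lay in the untranslated parts of both transcripts, with a median of 75 bp. In 216 pairs it reached the coding span of 1 gene, with a median of 576.5 bp, and in 85 pairs the coding spans of both, with a median of 1477 bp. In the remaining 102 pairs the minus-strand transcript lay wholly inside the plus-strand one. Outside those nested pairs, the plus-strand transcript entered its partner's coding span in 211 pairs and the minus-strand transcript did so in 175. The shared stretch covered a median of 7.75% of the plus-strand gene and 8.10% of the minus-strand gene over the 734 overlapping pairs that were not nested. Coding sequences themselves were well separated. Between the coding ends of the 1292 pairs that were not nested lay a median of 443 bp, and in only 9 pairs did the coding spans meet.

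**Figure D2:**
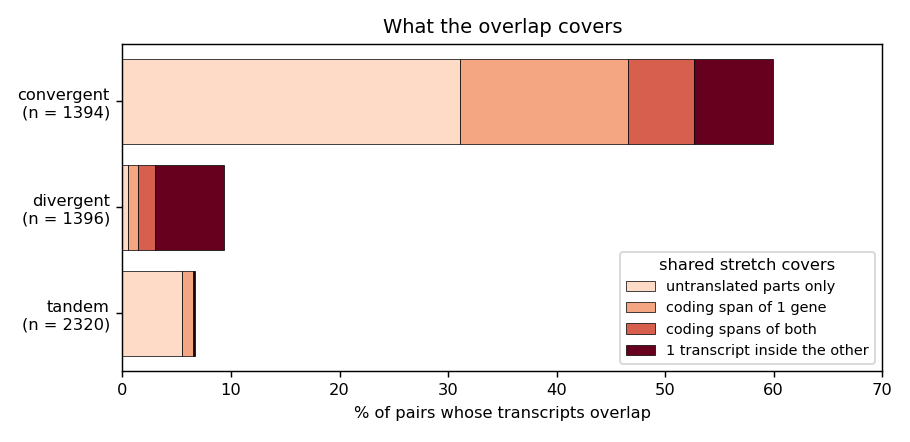
Pairs whose transcripts overlap, as % of the pairs of each orientation (convergent, divergent and tandem), split by what the shared stretch covers. In convergent pairs the overlaps within untranslated parts are the largest class, 433 of 836, while nested transcripts make up 89 of the 131 divergent overlaps.

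The nested pairs show a limit of sorting by gene start. Where a long plus-strand transcript starts first and holds a minus-strand gene, the pair counts as convergent. Where a long minus-strand transcript starts first and holds a plus-strand gene, it counts as divergent, although the 3′ ends may still face each other. Of the 89 nested divergent pairs, 85 had coding sequences arranged end to end, as in 96 of the 102 nested convergent pairs. In 81 of the 89 and 87 of the 102, the 3′ untranslated region of the outer gene held most of the inner gene. With orientation taken from the order of the coding sequences, a choice made after these values were seen, 914 of 1401 convergent pairs overlapped (65.2%), against 33 of 1403 divergent pairs (2.35%).

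The 5 longest overlaps without nesting all joined a long 3′ untranslated region to the partner. The longest, 6260 bp on chromosome II, lies between rad3, which encodes the ATR checkpoint kinase (904184 to 913629), and swi1, which encodes a replication fork protection protein (907370 to 914779). The coding sequences of that pair are 77 bp apart, while the annotated 3′ untranslated regions are 2104 bp in rad3 and 4233 bp in swi1. On chromosome I msw1, for a mitochondrial tryptophanyl-tRNA synthetase, shares 4831 bp with peg1, for a microtubule-binding CLASP protein, and their coding spans overlap by 4 bp. The esf2/lvs1 pair shares 3899 bp on chromosome II. On chromosome III vid21/sws2 shares 3763 bp and rik1/SPCC11E10.09c shares 3703 bp. None of these shared stretches touches a lncRNA gene.

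At the other extreme, the widest spaces were 5250 bp in fah1/SPBPB8B6.05c on chromosome II, 4630 bp in SPAC977.17/SPAPJ695.02 and 4509 bp in rpb7/eft201 on chromosome I, 4475 bp in mde3/tim50 on chromosome II, and 4049 bp in dga1/wtf4 on chromosome III. The rpb7 gene encodes an RNA polymerase II subunit, eft201 the translation elongation factor 2, and wtf4 belongs to a family of spore-killing meiotic drivers. A space between adjacent genes in start order can still hold another protein-coding transcript, which starts earlier and reaches across it. This was the case in 42 of the 548 convergent spaces (7.66%), in 4.19% of 1265 divergent spaces and in 4.67% of 2162 tandem spaces, a count added after the spaces were seen. Of the widest spaces, sec31 covers 96.6% of mde3/tim50, tcb3 covers 90.5% of rpb7/eft201 and grt1 covers 40.2% of fah1/SPBPB8B6.05c. The 506 convergent spaces that no other protein-coding transcript entered had a median of 159 bp. The 5 widest spaces hold from 1 to 4 lncRNA genes each, and of all 73 convergent spaces longer than 1000 bp, 61.6% hold a whole one.

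Annotated 3′ untranslated regions had a median of 250 bp in the 2648 genes of convergent pairs that have one, 280 bp in 2074 upstream genes of tandem pairs and 261 bp in all 4725 such genes. The facing 3′ ends of convergent genes were thus not drawn longer than those of other genes. Within convergent pairs the median was 281 bp where transcripts overlapped and 201.5 bp where they did not, where a longer region makes an overlap more likely by construction. Some genes have no annotated 3′ untranslated region, namely 140 of the 2788 genes in convergent pairs (5.02%) and 246 of the 2320 upstream genes in tandem pairs (10.6%). In the 1260 pairs in which both genes have one, 806 overlapped (64.0%), against 30 of 128 pairs with 1 such gene missing and 0 of 6 with both missing. A 3′ end that is not annotated is drawn at the stop codon, as far from the partner as it can lie.

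The 3 chromosomes were alike in these respects. Chromosome I had 638 convergent pairs, of which 380 overlapped (59.6%), with a median gap of -47.5 bp. On chromosome II 315 of 514 overlapped (61.3%), with a median gap of -47.5 bp, and on chromosome III 141 of 242 (58.3%), with a median of -43 bp. The density was 114.4, 113.1 and 98.7 pairs per Mb on chromosomes I, II and III. Neighbouring convergent points were a median of 7.31, 7.4 and 8.35 kb apart.

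Overlaps were fewer near the ends of chromosomes I and II. Within 100 kb of an end, a distance chosen with the data in view, 0 of 18 convergent pairs overlapped on chromosome I and 4 of 14 on chromosome II, against 380 of 620 and 311 of 500 in the rest of these chromosomes. On chromosome III, whose sequence ends in ribosomal DNA, 11 of 15 overlapped near the ends and 130 of 227 elsewhere. Near the ends, genes more often lacked an annotated 3′ untranslated region: 8 of 36 genes on chromosome I and 10 of 28 on chromosome II, against 51 of 1240 and 50 of 1000 in the rest. Among pairs in which both genes have such a region, 0 of 11 overlapped near the ends of chromosome I and 3 of 5 near those of chromosome II, against 365 of 569 and 302 of 452 in the rest. The part of missing regions in the lower overlap was not tested. The coding sequences were also further apart there, by a median of 1647.5 bp near the ends of chromosome I and 400.5 bp in its rest.

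**Figure D3:**
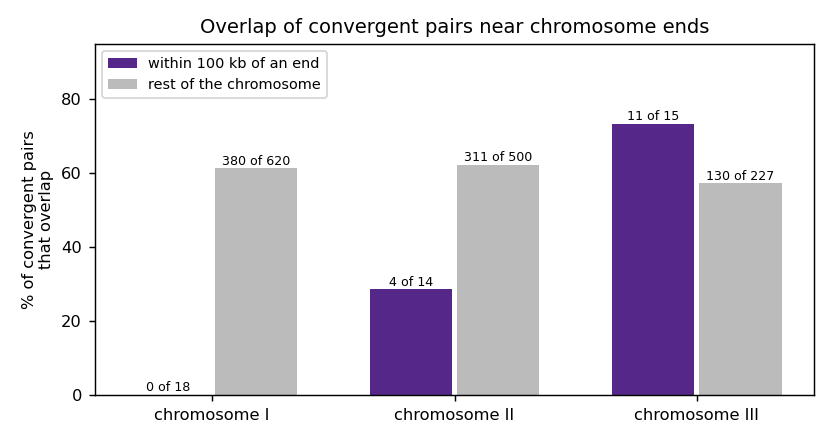
Share of convergent pairs whose transcripts overlap (%), within 100 kb of a chromosome end and in the rest of chromosomes I, II and III, with the counts above the bars. The share is 0 of 18 and 4 of 14 near the ends of chromosomes I and II and 11 of 15 near those of chromosome III.

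The first and last convergent pairs of chromosomes I and II all lay apart. SPAC212.04c/SPAC212.03 and SPAC750.01/SPAC750.02c on chromosome I had spaces of 538 and 3420 bp, and SPBC1348.05/SPBC1348.06c and SPBCPT2R1.03/SPBCPT2R1.04c on chromosome II had spaces of 602 and 780 bp. Next to the centromeres the picture was mixed. To the left of the centromeres of chromosomes I, II and III, prm1/lys1, toa1/ngg1 and chk1/meu27 overlapped by 4374, 97 and 2693 bp, where lys1 encodes a lysine synthesis enzyme and chk1 a DNA damage checkpoint kinase. To the right, emc5/rad50 on chromosome I overlapped by 4 bp, while yox1/rec6 on chromosome II and cmc2/cbp3 on chromosome III lay 107 and 153 bp apart. In the first and last pairs of chromosome III, nic1/SPCC757.02c and SPCC569.05c/SPCC569.04, the second gene is nested in the first, with overlaps of 2099 and 507 bp.

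Long non-coding RNA (lncRNA) genes, of which the annotation lists 7157, touched the space between the ends in 205 of the 548 convergent pairs that lay apart, or 37.4%. In the tetarr6 annotation, the other deposited file, which lists 1566 such genes, the share was 12.9%. Over all orientations the share was 68.9%, with 915 of 1265 divergent pairs (72.3%) and 1618 of 2162 tandem pairs (74.8%). A lncRNA gene lay wholly inside the space in 67 convergent pairs (12.2%), against 23.2% over all pairs that lay apart, 36.6% of divergent pairs and 18.2% of tandem pairs. In spaces free of another protein-coding transcript, 171 of 506 convergent (33.8%), 882 of 1212 divergent (72.8%) and 1569 of 2061 tandem spaces (76.1%) were touched. On chromosomes I, II and III the shares of convergent spaces touched were 37.0, 36.6 and 40%.

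Convergent spaces are short, so the pairs were also compared within classes of length. Among pairs more than 100 and up to 500 bp apart, 85 of 227 convergent spaces were touched by a lncRNA gene (37.4%), against 152 of 323 divergent (47.1%) and 827 of 1180 tandem spaces (70.1%). Among pairs more than 500 and up to 1000 bp apart the shares were 65.2% of 66 convergent, 81.4% of 361 divergent and 80.3% of 406 tandem spaces. Beyond 1000 bp they were 80.8% of 73, 96.4% of 476 and 93.4% of 363. Only in spaces of up to 100 bp was the convergent share, 18 of 182 (9.89%), not below the divergent one, 10 of 105 (9.52%). Whole lncRNA genes lay in 31.8% of convergent, 28.8% of divergent and 26.6% of tandem spaces of more than 500 and up to 1000 bp. The convergent share was the highest only in this class, which has 66 convergent spaces. Beyond 1000 bp the shares were 61.6, 74.8 and 71.6%. In spaces of more than 100 and up to 500 bp they were 0.441, 0.929 and 2.20%. In bases, lncRNA genes covered 37.5% of the convergent spaces longer than 1000 bp, 60.8% of the divergent and 60.7% of the tandem ones. Of these long spaces, only 41 of 73 convergent were free of another protein-coding transcript, against 458 of 476 divergent and 318 of 363 tandem. Among the free ones, a lncRNA gene touched 32 of 41 convergent, 443 of 458 divergent and 302 of 318 tandem spaces. Coverage in bases was not tested in the free spaces alone.

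**Figure D4:**
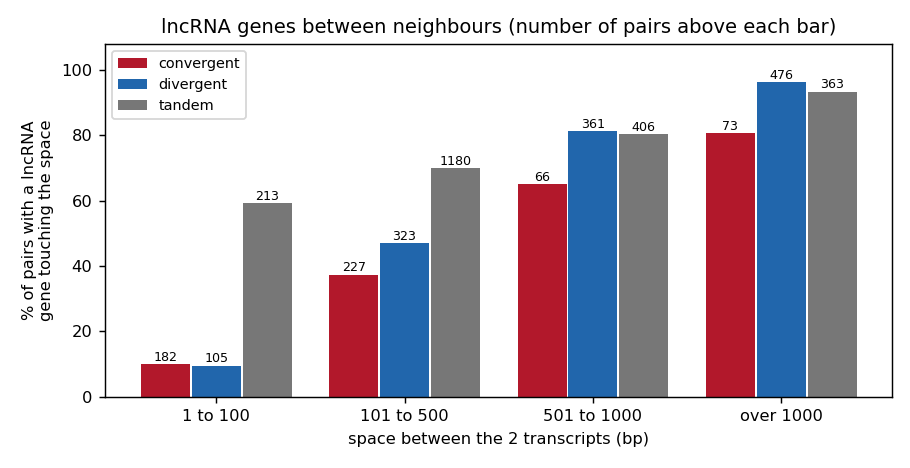
Share of pairs (%) in which a lncRNA gene touches the space between neighbouring protein-coding transcripts, by length of that space (bp) and by orientation, with the number of pairs above each bar. In the 3 classes above 100 bp the convergent bar is the lowest, at 37.4, 65.2 and 80.8%.

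The 269 lncRNA genes that touched convergent spaces were split evenly between the strands, 133 on plus and 136 on minus. Of these, 168 (62.5%) ran antisense into a member of the pair, 95 lay wholly in the space, and 14 overlapped both members. Of 734 overlapping convergent pairs that were not nested, 32 (4.36%) had a lncRNA gene over the shared stretch, against 11.9% over all orientations, 2 of 42 divergent pairs (4.76%) and 76 of 152 tandem pairs (50%). By construction, each of the 32 lncRNA genes overlapped both members, so it ran with one and antisense to the other. The most lncRNA genes, 5, touched the 2354 bp space of sul2/SPAC869.04 on chromosome I, where sul2 encodes a sulfate transporter. Next came 4 each for SPAC977.17/SPAPJ695.02, rpb7/eft201, SPAC26A3.11/Tf2-4 and SPAC683.03/SPAC683.02c. Of these spaces, rpb7/eft201 is covered to 90.5% by tcb3 and SPAC26A3.11/Tf2-4 to 85.1% by dhp1, so most of their length lies in another protein-coding transcript.

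Other short genes and repeats were also counted by orientation, without scaling to the number or length of the spaces. Convergent spaces, 257718 bp in all, held 25 of the 66 snoRNA records in 16 pairs. Divergent spaces, 1283391 bp in all, held 8 in 7 pairs, and tandem spaces, 1492803 bp in all, held 11 in 10 pairs. The snoRNAs guide chemical modification of ribosomal RNA. The reg1/psf3 space of 1369 bp holds 5 of them and the rad31/sir1 space of 1182 bp holds 4, all on the plus strand. These pairs were picked after the counts were seen. Long terminal repeats, the remains of retrotransposons, showed the opposite order. They lay wholly in 8 of 548 convergent, 95 of 1265 divergent and 88 of 2162 tandem spaces, from 238 records in all. Of 171 transfer RNA records, 16 lay in 13 of the 548 convergent spaces. Another 45 lay in 44 of the 1265 divergent spaces and 109 in 52 of the 2162 tandem spaces. All 3 centromere records lie in tandem spaces, so no convergent pair spans a centromere.

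Sequence at the 3′ ends was read from RefSeq, where 5103 of the 5113 genes have the same chromosome, strand and length. The canonical polyadenylation hexamer AATAAA stood in the last 40 bases of 425 of 2582 genes of convergent pairs (16.5%). The share was 249 of 2043 upstream genes of tandem pairs (12.2%) and 675 of 4628 genes of all kinds (14.6%), counting genes with an annotated 3′ untranslated region of at least 40 bp. The reverse complement TTTATT stood there in 8.60, 10.4 and 9.40% of the same 3 groups. The variants ATTAAA and AATGAA were found in 7.86 and 6.97% of the convergent genes, and in 7.76 and 6.61% of all genes. Their reverse complements TTTAAT and TTCATT stood in 10.2 and 4.07% of the convergent genes, and in 10.6 and 4.32% of all genes. In both groups ATTAAA was thus less frequent than its reverse complement. Each hexamer was searched separately on both strands, and matches to different hexamers may share bases. Where AATAAA was present in convergent genes, a median of 19 bases followed it. Both transcripts of a pair carried it in 36 of 1199 pairs, 1 of them in 326 and neither in 837. A missing hexamer says only that these letters are not in this window.

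Shared stretches within untranslated parts were rich in A and T, as were the ends of transcripts of all kinds. Their median A+T content was 74.3% over the 380 stretches of at least 20 bases. It was 70.2% in convergent spaces, 68.1% in divergent spaces, 68.6% in tandem spaces and 61.3% in the coding spans of all genes in convergent pairs. Stretches that reached coding sequence or a nested gene had a median of 64.3%. Pooled over bases, the shared stretches within untranslated parts had 72.9% A+T. In the genes of the hexamer count, the last 40 bases had a mean of 73.0% in convergent pairs. The mean was 72.6% in upstream genes of tandem pairs and 72.8% in all genes. The A+T richness is therefore not called particular to shared stretches.

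Among the genes the study deleted, mst2 is in a convergent pair and swi6, clr4 and set1 are not. Calls of listed genes, here and below, follow the sorting by gene start, and calls from coding order are not given. A gene in no convergent pair by start order may be in one by coding order, as in 85 of the 89 nested divergent pairs. Whether this holds for swi6, clr4 or set1 was not tested. The histone acetyltransferase gene mst2 (SPAC17G8.13c, chromosome I, 2363499 to 2366934, minus strand) lies wholly within the transcript of sec3, an exocyst subunit gene (2363286 to 2367055, plus strand). The shared stretch is the whole 3436 bp of mst2. The coding ends are 52 bp apart, and the annotated 3′ untranslated regions measure 1948 bp in mst2 and 1661 bp in sec3. Each transcript therefore runs across the coding sequence of the other.

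Of 12 RNA interference genes, 9 stood in convergent pairs (75%), and 7 of the 9 pairs overlapped. Over all protein-coding genes 54.5% stood in convergent pairs, and 60.0% of the pairs overlapped. With 12 genes chosen with earlier results in view, these shares are a description only. The genes of RITS, the complex that brings Argonaute to chromatin, split. For ago1, the Argonaute gene (SPCC736.11, chromosome III, 332272 to 335263), the partner is mmi1, whose product marks meiotic transcripts for destruction, and the ends lie 17 bp apart. The chp1 and tas3 genes are in no convergent pair, nor is arb1. The Argonaute chaperone gene arb2 shares 24 bp with crb3.

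The RNA-dependent RNA polymerase complex has 3 genes, all convergent. The polymerase gene rdp1 ends 29 bp from ade3, a purine synthesis gene. The helicase gene hrr1 shares 1321 bp with dms1, and its transcript enters the dms1 coding span. The nucleotidyltransferase gene cid12 has an annotated 3′ untranslated region of 3401 bp that runs over the whole 657 bp of naa50, an N-terminal acetyltransferase gene. The Dicer gene dcr1 (SPCC188.13c, chromosome III, 1503142 to 1508750) shares 1903 bp with the septin gene spn6, reaching coding sequence of both, and their coding ends are 20 bp apart. Among connecting factors, ers1 shares 61 bp with ipi1, stc1 shares 842 bp with mug30, and dsh1 shares 8 bp with cdc13, the mitotic cyclin gene. The overlap of cdc13 with dsh1 reaches the dsh1 coding end because dsh1 has no annotated 3′ untranslated region.

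Short stretches from 3 pairs show these meetings in full, on the plus strand of RefSeq, in lower case because neither AATAAA nor TTTATT occurs in them. The first line is the space between ago1 and mmi1, the next the space between rdp1 and ade3, and the last the stretch shared by arb2 and crb3.
ago1/mmi1, chrIII:337071-337087: gcccacaacttttactt
rdp1/ade3, chrI:1329062-1329090: acacatatactcgatggttaaagcaattt
arb2/crb3, chrI:2310271-2310294: ttttccaatgagattataacaaaa

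The last 30 bases of 6 transcripts, each 5′ to 3′ on its own strand, show the variety of 3′ ends in overlapping pairs. Capitals mark AATAAA, which hrr1 and ipi1 carry, in hrr1 as a pair of copies that share bases. The ends of dcr1 and its partner spn6, and of mst2 and its partner sec3, have none.
hrr1, chrIII:2034176-2034205, plus strand: gctttAATAAATAAAaatattatcataaac
ipi1, chrIII:804483-804512, minus strand: AATAAAattaattaaatagtagggtgtatc
dcr1, chrIII:1504949-1504978, minus strand: aaatttaataataattgaaggttttcagtc
spn6, chrIII:1506822-1506851, plus strand: aaaaagatttgtaatcagttaattcgccag
mst2, chrI:2363499-2363528, minus strand: aatagataaatattaacaaaaaaaaaacca
sec3, chrI:2367026-2367055, plus strand: ctcatattttttacttttgtattctgaaac

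**Figure D5:**
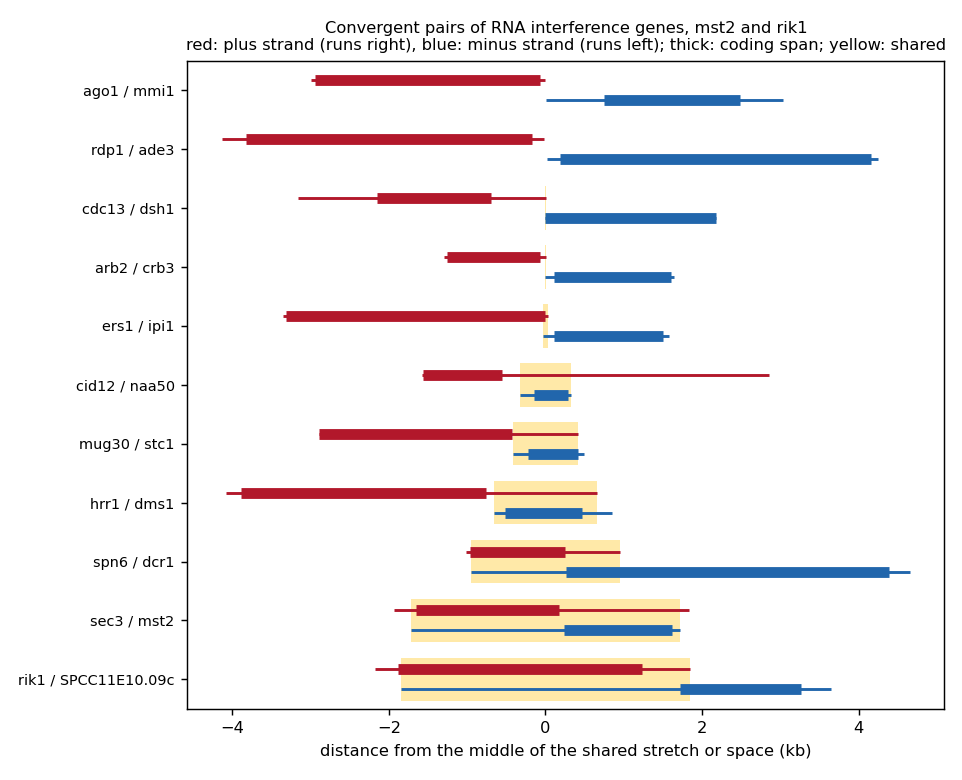
Transcripts of the 9 convergent pairs with an RNA interference gene, of sec3/mst2 and of rik1/SPCC11E10.09c, by distance (kb) from the middle of their shared stretch or space; thin lines are transcripts, thick lines coding spans, red the plus strand, blue the minus strand and yellow the shared stretch. The ends of ago1/mmi1 and rdp1/ade3 lie 17 and 29 bp apart, while spn6/dcr1 shares 1903 bp and sec3/mst2 3436 bp.

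Of 12 genes for heterochromatin proteins, 6 stood in convergent pairs (50%) and 3 of these overlapped, beside 54.5% of all genes and 60.0% of all convergent pairs. The rik1 gene, which encodes a subunit of the Clr4 methyltransferase complex, shares 3703 bp with SPCC11E10.09c, whose annotated 3′ untranslated region is 3422 bp long. Another subunit gene of that complex, raf2, ends 46 bp from erv29. Of the genes for the SHREC deacetylase complex, mit1 overlaps nbr1 by 40 bp, clr2 lies 9 bp from mrps18, and clr3, the deacetylase gene, lies 2367 bp from the ribosomal protein gene rpl4301 across 3 transfer RNA genes. The NAD-dependent deacetylase gene sir2 shares 114 bp with the zinc transporter gene zrt1. Among the rest of the list, swi6, chp2, clr4, clr1 and epe1 are in no convergent pair.

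Of 11 genes for cohesin and its loading, 3 stood in convergent pairs (27.3%, beside 54.5% of all genes), and all 3 pairs overlapped, beside 60.0% of all convergent pairs. The kleisin gene rad21 shares 962 bp with pof3, the subunit gene psc3 shares 1048 bp with SPAC607.02c, and the cohesin acetyltransferase gene eso1 shares 199 bp with SPBC16A3.12c. Among 18 genes listed for cleavage, polyadenylation and termination, 9 were convergent and 5 of those pairs overlapped. Without pap1 and fip1, which in fission yeast encode a stress transcription factor and an iron permease, 8 of 16 were convergent (50%) and 5 of the 8 pairs overlapped (62.5%), near the shares over all genes. The termination factor gene pcf11 shares 180 bp with rnh201, and dhp1, for a nuclear exonuclease that acts in termination, shares 154 bp with cnt6. The poly(A) polymerase gene pla1 shares 45 bp with erg9, cft2 shares 37 bp with ngl1, and iss1 shares 745 bp with cum1. The seb1 gene lies 86 bp from byr4, rna14 lies 333 bp from nup40, and dis2 lies 468 bp from rpl29. The fip1 gene lies 440 bp from hsp3105.

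The 7 listed genes found from well-known convergent loci stood in 4 pairs, of which 0 overlapped, beside 60.0% of all convergent pairs. One of them, tam14/new25, is a pair because ura4, which is on the list, is not in this annotation. The thiamine-repressed gene nmt1 (chromosome III, 1836608 to 1837857), whose promoter is a common expression tool, lies 929 bp from gut2, and 2 lncRNA genes, 1 on each strand, touch that space. The rpl2302/bub1 pair, with the spindle checkpoint kinase gene bub1, lies 175 bp apart. The ade6/vtc4 pair lies 339 bp apart.

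The ura4 locus differed between annotations. In RefSeq the reporter gene ura4 on the minus strand forms a convergent pair with tam14, with a space of 332 bp. The all-chromosomes annotation lacks ura4, and there tam14 (chromosome III, 114921 to 115256) faces new25 (115771 to 116126) across 514 bp. In the tetarr6 annotation the same genes lie 3555 bp apart, and a record for a Tetarr-ade6 construct, which has no coding sequence record and so was not counted as a gene, lies between them. The nearest convergent pairs on either side, rhp7/SPCC330.19c and btb1/sdh3, have spaces of 10 and 163 bp. The ade6/vtc4 pair is absent from the tetarr6 annotation, which lists no ade6 gene there. Next to the edited mating-type region of chromosome II, SPBC23G7.14/rpp202 and aha1/SPBC1711.09c overlap by 143 and 12 bp. Apart from tam14/new25 and SPAC20G4.09/erg4, all 1392 convergent pairs were found in RefSeq with the same gap.

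The tetarr6 annotation gave nearly the same 3′ geometry. Of the 1394 pairs, 1352 were adjacent there as well, and all of these were convergent. The gap was equal to the base in 1246 (92.2%), and 1344 of the 1352 were on the same side of overlap in both annotations. For the other orientations the annotations drew different borders. The gap was equal in 24 of 1343 matched divergent pairs (1.79%) and 137 of 2262 tandem pairs (6.06%). Transcripts overlapped in 285 of the matched divergent pairs in the tetarr6 annotation, against 114 in the all-chromosomes annotation. Among named pairs, the sec3/mst2 gap was -3557 bp in the tetarr6 annotation and -3436 bp in the all-chromosomes annotation, and the yox1/rec6 gap was -724 bp in the tetarr6 annotation and 107 bp in the all-chromosomes annotation.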

How the data were processed

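The labels describe chromatin immunoprecipitation libraries of fission yeast, and the submitters' processing notes name BWA and Trimmomatic. The sources used here give no versions, settings or genome build. Both files are annotations whose start and end fields are other values, positions in bp of no sample, as deposited by the authors. One credits PomBase in its source fields, and per the file headers the other came out of Geneious 7.1.5. No record carries a score, so sequencing depth is unknown here.

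Gene records were used as transcript spans, and all 5113 equal the outer ends of their messenger RNA records. A gap is the number of bases between neighbouring spans, and an overlap counts from 1 bp. Protein-coding genes of the tetarr6 annotation are those with a coding sequence. Sequences came from RefSeq (ASM294v3) at its own gene positions, since the edited builds shift chromosomes II and III. No position was converted. The functions recovered every simulated pair in layouts whose overlaps were short and lay in untranslated parts only. Nested pairs and overlaps reaching coding sequence were not simulated.

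Named were pairs with a gene of 6 lists, the 5 longest overlaps and spaces, the 5 with most lncRNA genes, the first 8 with adjoining ends, and pairs next to centromeres, edited loci and chromosome ends. Members and lists were chosen with earlier results of these data known. Python 3.11.15, NumPy 2.4.6, SciPy 1.17.1 and matplotlib 3.10.9 were used.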

Additional observations from a re-analysis of the deposited data

How the results depend on the processing

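Shares and medians were recomputed under each alternative and called moved where they left the range that a 95% binomial interval of the reported value would give, used only as a yardstick, or, for numbers of pairs, where they differed by more than 1.5 times. With coding sequence ends in place of transcript ends, 1.36% of convergent, 0.428% of divergent and 0.0867% of tandem pairs overlapped, and the median gaps were 379, 1022 and 743 bp, so the overlap rests on the untranslated regions. Leaving out nested pairs gave 56.8% of convergent pairs overlapping with a median gap of -32 bp, and 3.21% and 755 bp for divergent pairs. Sorting by midpoint gave 63.7% and -67 bp for convergent pairs. Requiring 50 or 100 bp of overlap left 49.4 and 38.1%. Leaving out chromosome I or II left 756 or 880 convergent pairs, by construction. In the tetarr6 annotation the divergent values were 21.5% and 449.5 bp and the tandem values 13.8% and 255 bp, and 12.9% of convergent spaces were touched by a lncRNA gene; that annotation lists 1566 such genes against 7157. Counting only lncRNA genes wholly in the space gave 12.2%, and the span between coding ends gave 45.1%. Of the alternatives added after seeing the data, pairs with both 3′ untranslated regions gave 64.0% and -61.5 bp. Orientation from coding order gave 65.2% and -73 bp for convergent pairs and 2.35% and 758 bp for divergent pairs. Within 50 and 200 kb of the ends of chromosome I, 0 of 9 and 12 of 44 convergent pairs overlapped. Spaces free of another protein-coding transcript gave 33.8% touched by a lncRNA gene. In all, 37 recomputed values stayed within those ranges and 29 moved. No paired analysis was possible because both annotations hold positions, not measurements of libraries. Overlaps and gaps depend on how each annotation draws transcript ends, and lncRNA shares on how many such genes it lists.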
